A study of Homo sapiens with 8 samples.

Results

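The late state of MLL/AF4 depletion was represented by 2 of the 8 bead arrays of the series, both of RNA taken on day 6, after 3 electroporation pulses at intervals of 2 days. One array held SEM cells given siRNA against MLL/AF4 at every pulse (siMLL/AF4), and the other held SEM cells given control siRNA on the same schedule (siCtrl). The other arrays were the corresponding siMLL/AF4 and siCtrl pairs of day 2 and day 4 and mock-electroporated cells (MOCK, a pulse without siRNA) of those same days. Electroporation is therefore shared by both arrays of day 6, and the serial delivery of siRNA is shared by them too. SEM is an established B-cell precursor acute lymphoblastic leukaemia line that carries the MLL/AF4 fusion, so that the material is a single line and not a set of patients. Of the 39421 probes of the value table, 7868 were bright on at least 1 of the 2 arrays, which left 6361 genes with a symbol of their own. Bright means at or above the 70th percentile of an array's values (log2 7.53), and the brightest probe stood for its gene. KIF3B, at 7.53, was the gene just inside this limit and ORAI2, also at 7.53, the gene just outside it.

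MLL (gene symbol KMT2A) is a histone methyltransferase and AF4 (gene symbol AFF1) is a scaffold of transcription elongation complexes. Their fusion holds a set of haematopoietic genes, among them HOXA cofactors and PROM1, at high levels in infant leukaemia of the B lineage. Loss of the fusion by RNA interference is used to ask which genes depend on it. The day 6 arrays ask how the cells differ once depletion has been sustained over several cell divisions, and which differences were absent when depletion began.

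There was 1 array for each treatment on day 6, so no difference between them was tested, and genes were counted past a 2-fold difference. Both arrays were of a newer version than the other 6, and this version cannot be told apart from day 6 itself. The deposited values behave as natural logs, which the authors did not state, and they are given here as log2. Were they logs to base 2, every level and difference would be 0.693 times as large. Values under the 50th percentile (log2 5.16) or missing were set to that floor, and a difference that rests on it is a bound, written as "at least". Across bright genes the Spearman correlation of the 2 day 6 arrays was 0.922, while siMLL/AF4 of day 6 correlated at 0.733 to 0.861 with the 6 older arrays. Because each array is of bulk RNA, fewer cells of a type and less RNA per cell cannot be told apart.

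The probes of the fusion partners were examined first. KMT2A stood at 7.86 with siCtrl and at 7.33 with siMLL/AF4 on day 6, a difference of -0.53, beside -0.49 on day 2 and -0.55 on day 4. The bright AFF1 probe (ILMN_2129015) stood at 8.42 with siCtrl and at 7.91 with siMLL/AF4, a difference of -0.51, where day 2 had -2.02 and day 4 had -1.21. The second AFF1 probe (ILMN_1673119) was not bright, at 6.37 with siCtrl and under the floor with siMLL/AF4, which bounds its difference at -1.21. All 3 probes were thus lower with siMLL/AF4 on day 6, each in the direction of the label. For the bright AFF1 probe, siMLL/AF4 stood at 7.90, 7.88 and 7.91 on days 2, 4 and 6. The siCtrl values fell, from 9.92 to 9.09 and 8.42, so its smaller day 6 difference lies on the control side. The KMT2A values of MOCK, on the older array version, were 7.11 (day 2) and 6.38 (day 4), under siMLL/AF4 of day 6. MOCK stood at 8.50 and 7.75 for the bright AFF1 probe and at 6.01 and 6.07 for the second. Both genes are also transcribed outside the fusion, so these probes follow the fusion only in part.

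On day 6, 364 genes were at least 2-fold higher with siMLL/AF4, 5.72% of the bright genes, and 255 were at least 2-fold lower, 4.01%. The share past 2-fold in either direction was 9.73%, the same as on day 2 (9.73% of 6463 genes) and above day 4 (3.81% of 6375). The standard deviation of the differences was 0.665 on day 6, against 0.646 on day 2 and 0.468 on day 4. Among the 5625 genes bright on both arrays, 218 (3.88%) were higher and 109 (1.94%) lower by 2-fold, while 146 of the higher and 146 of the lower genes were bright on 1 array only. Such genes had to differ to be included from that side, so the counts on both-bright genes are given below beside the lists whose counts they change. With genes split into 4 equal classes by brightness, the dimmest class held the most 2-fold differences, 14.5%, against 8.43% in the brightest class. In that brightest class 122 genes were higher and 12 lower.

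**Figure D1:**
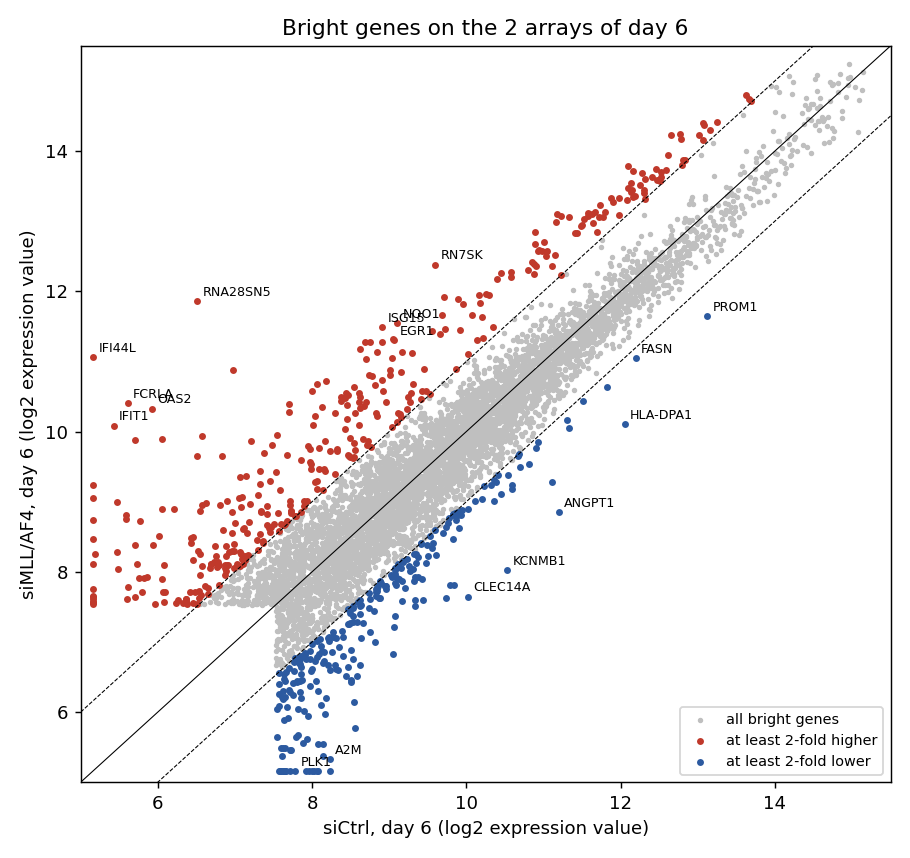
Each point is 1 of the 6361 bright genes, with its log2 expression value under siCtrl on the horizontal axis and under siMLL/AF4 on the vertical axis, both on day 6. Most genes follow the diagonal, and a band of genes at the bright end runs above it, where 122 genes were at least 2-fold higher and 12 lower.

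The only error these 2 arrays hold is the spread between probes of 1 gene. Of 1328 genes with several bright probes, the median standard deviation between probes was 0.19 and 71.0% had all probes of one sign. Of the 90 such genes whose brightest probe passed 2-fold, 70 had all probes of one sign, and 39 had all probes past 2-fold one way, 27 higher and 12 lower. Probes are not replicates, and they read the same RNA.

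Interferon-stimulated genes formed the gene list with the largest share of 2-fold members. Type I interferon induces antiviral genes, many of which carry an interferon-stimulated response element (ISRE) in their promoters. Of 38 genes on the list, 34 had a probe and 25 were bright on day 6, of which 24 were higher with siMLL/AF4 and 21 at least 2-fold higher. That is 84% of the bright members, against 5.72% of all bright genes, and the list median was 2.11 against -0.042. Over the 13 members bright on both arrays, 12 were higher, 9 of them at least 2-fold, with a median of 1.53. IFITM2, a membrane protein that blocks viral entry, was the 1 lower member, at -0.72. This list was chosen with earlier results of these data known, so its count is a description.

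The ISRE core, read as GAAA, any 2 bases and GAAA again on either strand, was searched in the 250 bases before the annotated start in RefSeq promoters (GRCh38.p14). It was found in 9 of the 16 members at least 2-fold higher that had a promoter sequence, 56.2%. Over all 27305 promoters the share was 3.07%, over the promoters of bright genes 2.64%, and over genes at least 2-fold higher outside the list 5.15%. The promoters of genes at least 2-fold lower held it in 1.43%. BST2, ISG20 and SAMD9, the bright members searched that were not past 2-fold, all held it. The element thus did not set the 2-fold members apart within the list. The list was drawn from known interferon-stimulated genes, so its share describes the list and is no evidence on day 6. The windows below show the element, in capitals, for 6 of these 9 genes, and for BST2 as a member with the element and a small difference. Each is printed 5′ to 3′ on the strand of the gene.
IFI44L, chr1:78620264-78620404, plus strand: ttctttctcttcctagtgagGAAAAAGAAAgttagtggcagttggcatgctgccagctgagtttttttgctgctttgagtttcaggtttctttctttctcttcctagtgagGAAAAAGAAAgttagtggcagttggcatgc
IFIT1, chr10:89392487-89392586, plus strand: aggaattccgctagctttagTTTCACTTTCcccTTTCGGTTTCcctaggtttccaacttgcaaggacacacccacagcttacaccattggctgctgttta
IFIT3, chr10:89327821-89327920, plus strand: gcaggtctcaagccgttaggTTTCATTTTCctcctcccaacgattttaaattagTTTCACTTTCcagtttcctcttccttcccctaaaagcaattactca
ISG15, chr1:1013364-1013463, plus strand: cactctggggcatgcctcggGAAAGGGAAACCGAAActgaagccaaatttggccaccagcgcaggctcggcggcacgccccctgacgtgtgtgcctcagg
EPSTI1, chr13:42992242-42992311, minus strand: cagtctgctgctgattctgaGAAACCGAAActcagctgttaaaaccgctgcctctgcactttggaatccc
IFI44, chr1:78649751-78649788, plus strand: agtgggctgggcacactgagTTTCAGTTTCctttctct
BST2, chr19:17405681-17405780, minus strand: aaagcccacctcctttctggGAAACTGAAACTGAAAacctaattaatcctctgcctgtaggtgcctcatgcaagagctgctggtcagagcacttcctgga
The IFI44L window holds the same element in a repeated stretch, and the ISG15 and BST2 windows hold overlapping copies. IFIT1 and IFIT3 carry the element on the opposite strand, so that it reads TTTC first. No match was found for IRF9, OAS1, PARP9, SAMD9L, XAF1, EIF2AK2 and IFI35, which says only that these letters are not in that window. OAS2, IFIT2, MX2, IRF7 and TRIM22 were not searched.

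IFIT1, which binds RNA with a foreign cap, stood at 5.43 with siCtrl and 10.09 with siMLL/AF4 on day 6, 25.2-fold higher. On the earlier days it stood at 2.33 and 5.83 (siCtrl and siMLL/AF4, day 2) and at 5.33 and 6.57 (day 4). Its day 6 siMLL/AF4 value lies above all other arrays, MOCK included (4.43 and 5.73). IFIT2, a relative that restricts viral translation, stood at 5.70 and 9.88 on day 6, 18.1-fold higher, after 7.12 and 8.41 on day 2 and 7.36 and 8.76 on day 4. OAS2, an enzyme that makes the second messenger of RNase L, stood at 5.93 and 10.32, 21.1-fold higher. Before that it was nearly level, at 8.10 and 8.27 on day 2 and at 7.55 and 7.41 on day 4. The siCtrl value of day 6 is the lowest of the 8 arrays for OAS2, IFIT2, MX2, IFIT3 and PARP9, so part of their differences lies on the control side. For IFIT1, SAMD9L, IFI44 and ISG15 it is not the lowest. Over the 21 members at least 2-fold higher, siCtrl of day 6 minus the mean of the earlier siCtrl arrays had a median of -0.40. Over all 364 higher genes that median was 0.71, and the earlier arrays are of the older version. SAMD9L, an inhibitor of translation in infected cells, stood at 6.06 and 9.90, and MX2, an antiviral GTPase, at 5.58 and 8.81.

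Both IFI44 and IFI44L, interferon-induced neighbours on chromosome 1, were high with siMLL/AF4. At its brightest probe IFI44L had no value on any siCtrl array. With siMLL/AF4 it stood at 3.44 (day 2), 5.32 (day 4) and 11.06 (day 6), the last at least 59.9-fold above the floor. Its second bright probe stood at 4.92 with siCtrl, under the floor, and at 8.17 with siMLL/AF4 on day 6, higher by at least 3.01. IFI44 stood at 6.97 and 10.88 on day 6, a difference of 3.90, and was already higher by 3.25 on day 2 and by 2.86 on day 4. EPSTI1 was without a value in siCtrl and at 9.23 with siMLL/AF4, at least 16.9-fold higher.

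The signalling members differed less but were measured well above the floor. IRF9, a transcription factor of the interferon response, stood at 8.68 with siCtrl and 11.28 with siMLL/AF4, a difference of 2.60, where the 4 older siRNA arrays lay between 8.72 and 9.48. IRF7, which drives type I interferon genes, stood at 8.63 and 10.50, and IFIH1, the cytosolic sensor of double-stranded RNA known as MDA5, was higher by 2.11. ISG15, a ubiquitin-like modifier, stood at 8.91 and 11.49, a difference of 2.58, after differences of 0.043 on day 2 and 0.15 on day 4. HERC5, the ligase that attaches ISG15, was higher by 1.53. PARP9 was higher by 2.23, XAF1 by 1.82, TRIM22 by 1.68, IFI6 by 1.66, OAS1 by 1.18, EIF2AK2 (the kinase PKR) by 1.11 and IFI35 by 1.09. Smaller differences were those of SAMD9 at 0.74, ISG20 at 0.66 and BST2 (tetherin) at 0.53.

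Across the 8 arrays, siMLL/AF4 of day 6 held the highest value for 22 of the 25 bright members. It did so for 15.8% of all bright genes, but for 290 of the 364 genes at least 2-fold higher on day 6. The count of 22 therefore largely restates the day 6 difference. Of the members bright on day 2, 4 of 18 were at least 2-fold higher then, with a median of 0.19, and 5 of 20 on day 4, with a median of 0.30. The background on those days was 4.32% higher and 5.42% lower on day 2, and 2.23% higher and 1.58% lower on day 4. Among the 9 members with dim probes, RSAD2 was higher by at least 2.31, OAS3 by at least 2.29, OASL by at least 1.81 and RIGI by at least 1.72. IFITM1 was higher by 1.28 and IFITM3 by 0.28. IFIT5, MX1 and IFI27 were under the floor on both arrays. Guanylate-binding proteins and IRF1, which answer mainly to interferon gamma, had a median of 0.42. Of their 9 bright members 1 passed 2-fold, GBP2 at 6.63 and 8.98, where 5.72% of all bright genes were at least 2-fold higher. GBP2 was bright on 1 array only, so none of the 8 members bright on both passed.

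**Figure D2:**
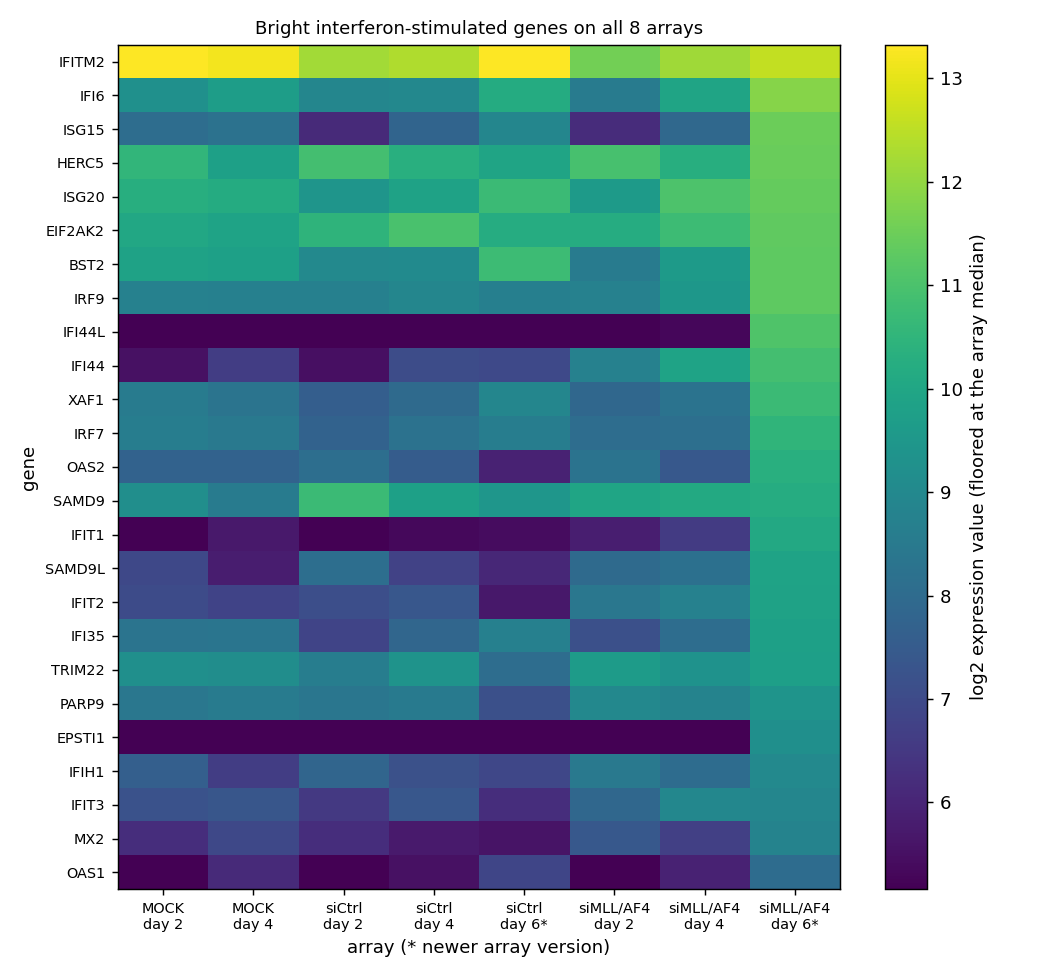
The colour gives the log2 expression value of the 25 bright interferon-stimulated genes (rows) on the 8 arrays (columns, day 6 pair on the newer array version). All arrays are floored at the median of the siCtrl array of day 6 (log2 5.16). The siMLL/AF4 array of day 6 holds the highest value in 22 of the 25 rows.

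FCRLA, an intracellular relative of the Fc receptors in B cells, differed most among protein-coding genes measured on both arrays, at 5.61 with siCtrl and 10.40 with siMLL/AF4, 27.7-fold higher. It was also higher by at least 3.03 on day 2 and by 3.53 on day 4, and no siCtrl or MOCK array exceeded 6.23. GABARAPL1, which loads cargo into autophagosomes, was under the floor with siCtrl and at 9.06 with siMLL/AF4, at least 14.9-fold higher, and was higher by at least 2.81 on day 2 and by 2.77 on day 4. NLGN4X, a neuronal adhesion protein, was higher by 2.66 on day 6, with both probes between 2.66 and 2.73. ENPP2 (autotaxin), which makes lysophosphatidic acid, was higher by 3.07 at its brightest probe and by at least 2.41 at every bright probe. ANXA1, a phospholipid-binding protein of the resolution of inflammation, stood at 5.77 and 8.72.

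Other genes high in the siMLL/AF4 array of day 6 had weak values elsewhere. ANKRD44 was higher by 3.53, and PATE2 stood at 6.58 and 9.93, PPIAL4G at 5.59 and 8.76, and COX19 at 6.06 and 8.89. Among the bounds, ZNF626 was higher by at least 3.57, GSDMB by at least 3.30 and SNAR-A1 by at least 2.96. GSDMB is a pore-forming gasdermin, and COX19 is an assembly factor of cytochrome oxidase. None of these genes was past 2-fold higher on both earlier days.

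ANGPT1, the ligand of the TIE2 receptor and a known product of early haematopoietic cells, stood at 11.20 with siCtrl and 8.85 with siMLL/AF4, 5.07-fold lower, and its probes differed by -2.38 and -2.34. The earlier differences were -1.16 (day 2) and -2.25 (day 4). The day 6 siMLL/AF4 value of ANGPT1 is the lowest of the 8 arrays, and MOCK stood at 11.41 and 10.75. CD93, a C-type lectin-like receptor of progenitor and endothelial cells, stood at 8.14 and 5.38, 6.76-fold lower, after differences of -1.01 and -1.87. CLEC14A, a related receptor, stood at 10.02 and 7.65, 5.18-fold lower, with -0.88 and -1.30 before. All 3 genes showed the same sign on every day and their largest difference on day 6.

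A2M, a protease inhibitor, had the largest difference among the lower genes measured on both arrays, at 8.23 with siCtrl and 5.33 with siMLL/AF4, 7.48-fold lower. Its MOCK values of 4.87 and 6.04 were as low as its siMLL/AF4 values, so the high arrays of A2M are those with control siRNA. HIVEP2, a zinc finger transcription factor, stood at 8.14 and 5.55, with -2.22 on day 2 and -1.57 on day 4. KCNMB1, a subunit of potassium channels, stood at 10.53 and 8.02, 5.69-fold lower, after -0.21 and -0.67. FAM43A differed by -2.79, CHST14, a sulfotransferase of dermatan sulfate, by -2.54, HCP5 by -2.41, IL16, a T-cell chemoattractant, by -2.32, GNG2, a G-protein subunit, by -2.28 and NIBAN2 by -2.22. Where siMLL/AF4 was under the floor, the bound on the difference was -3.07 for ANAPC7, a subunit of the anaphase-promoting complex, -2.91 for both KLHL23 and RAB43, -2.86 for GCAT, -2.84 for HCST and -2.80 for MYBBP1A.

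Genes described as direct targets of MLL/AF4 were mostly lower by less than 2-fold. Of 29 listed genes 23 were bright, 17 of them lower, with a median of -0.29, where 3420 of all 6361 bright genes were lower. PROM1, the stem-cell surface protein CD133, stood at 13.12 with siCtrl and 11.65 with siMLL/AF4, a difference of -1.47, and that siMLL/AF4 value is the lowest of the 8 arrays. Its neighbour TAPT1 differed by -0.63. ARID2, a chromatin remodelling subunit, differed by -1.01, PBX3, a HOX cofactor, by -0.70, LMO2 by -0.70, CDK6 by -0.65 and the receptor FLT3 by -0.61. MEIS1, another HOX cofactor, stood at 10.41 and 10.29, a difference of -0.11, smaller than the median standard deviation between probes of a gene (0.19). REEP3 went the other way, at 7.09 and 9.07, and was also higher on the earlier days, by 1.29 and 2.66. SENP6 was higher by 1.10. Against the mean of the earlier siCtrl arrays the day 6 values turned, to -0.15 for REEP3 and -0.30 for SENP6. The 2 lower members past 2-fold are 8.70% of the list, beside 4.01% of all bright genes, and on both-bright members 1 of 20 was lower and 1 higher.

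Stem and progenitor genes had 2 of 11 bright members past 2-fold, both lower, and these were ANGPT1 and PROM1. Among all 6361 bright genes 3420 were lower, 4.01% at least 2-fold lower and 5.72% at least 2-fold higher. The receptor IL7R, at 10.49 and 11.40, was higher by 0.91. B-lineage transcription factors had 8 of 12 bright members lower and a median of -0.31. SPI1 (PU.1), which sets the balance of myeloid and B fate, stood at 10.81 and 9.54, a difference of -1.27, and its second probe differed by -1.08. Against the mean of the day 2 and day 4 siCtrl arrays, which are of the older array version, the day 6 siMLL/AF4 value of SPI1 was higher by 2.25. SPIB differed by -0.82 and IKZF1 (Ikaros) by -0.68. In the pre-B-cell receptor and surface list 2 of 14 bright members passed 2-fold, both higher, namely FCRLA and IGLL1 (the surrogate light chain), which stood at 9.28 and 10.54. On the 12 bright on both arrays, 1 passed, where 3.88% of all such genes were at least 2-fold higher. SYK, the kinase downstream of this receptor, stood at 10.59 and 9.59.

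Lymphocyte trafficking genes were higher in 8 of 11 bright members, 5 of them (45.5%) at least 2-fold, with a median of 0.84. Of all bright genes 46.1% were higher and 5.72% at least 2-fold higher. KLF2, the transcription factor that controls exit from lymphoid organs, stood at 8.43 with siCtrl and 10.04 with siMLL/AF4. RGS1, which dampens chemokine receptor signals, stood at 5.47 and 8.28, GPR183, a receptor for oxysterols, at 6.09 and 8.10, and ITGB7, an integrin of gut homing, at 10.14 and 11.30. The chemokine receptor CXCR4 was higher by 0.84. KLF2 was higher on every day, by 1.82 on day 2 and 2.60 on day 4 beside 1.61 on day 6. On members bright on both arrays the count was 2 of 8, against 3.88% of all such genes.

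Immediate early genes, which answer to stimulation within minutes, had 10 of 12 bright members higher and 4 (33.3%) at least 2-fold higher, against 5.72% of all bright genes, with a median of 0.76. EGR1 stood at 9.07 with siCtrl and 11.30 with siMLL/AF4, and FOS at 7.33 and 9.25. On the earlier days the sign was opposite, at -1.18 and -0.70 for EGR1 and at -0.21 and -0.65 for FOS. EGR1 is thus among the bright genes, described further on, that were lower on day 2 and higher on day 6. ATF3, a stress-induced repressor, was higher by 1.34 and ZFP36, which destabilises messenger RNA, by 0.90. Of the 10 members bright on both arrays, 2 were past 2-fold, against 3.88% of all such genes. The ERK feedback genes had no bright member higher on day 6. DUSP6, the phosphatase that inactivates ERK, stood at 9.79 and 7.82, a difference of -1.97, and SPRY2 and SPRED1 differed by -0.61 and -0.48. The DUSP6 siCtrl value of day 6 is its highest on the 8 arrays.

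NRF2 targets, the antioxidant genes, were higher in 11 of 12 bright members, 3 of them at least 2-fold, with a median of 0.49. NQO1, a quinone reductase, stood at 9.10 with siCtrl and 11.55 with siMLL/AF4, and had been higher by 1.54 and 1.21. GCLM and GCLC, the subunits of the enzyme that starts glutathione synthesis, were higher by 1.73 and 0.81. ME1, malic enzyme, stood at 7.99 and 9.54. All 12 members were bright on both arrays, so this count does not rest on dim values. Among all genes bright on both arrays 3.88% were at least 2-fold higher, and among all bright genes 46.1% were higher.

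Lipid synthesis genes were lower as a rule. Among all 6361 bright genes 3420 were lower and 4.01% at least 2-fold lower, and among genes bright on both arrays 1.94% were. Fatty acid synthesis had 9 of 11 bright members lower, 3 at least 2-fold, with a median of -0.68, all 11 being bright on both arrays. SREBF1, the transcription factor of the pathway, stood at 9.44 with siCtrl and 7.59 with siMLL/AF4, a difference of -1.84, and its second probe differed by -1.18. On day 2 it had differed by 0.45 and on day 4 by -0.93. FASN, fatty acid synthase, stood at 12.19 and 11.05 and SCD, the desaturase, at 11.52 and 10.44. ACACA, acetyl-CoA carboxylase, differed by -0.96 and FADS1 by -0.85, and ME1 was the member past 2-fold in the other direction. Cholesterol synthesis had 14 of 17 bright members lower with a median of -0.40, led by NSDHL at -1.10 and LSS, lanosterol synthase, at -1.04. TM7SF2 differed by -0.83 and INSIG1, a sterol sensor, by -0.72. HSD17B7 was higher by 1.46.

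MHC class II genes, which present peptides on B cells, were lower in all 9 bright members, with 3 at least 2-fold lower, against 4.01% of all bright genes, and a median of -0.61. Of the 8 bright on both arrays, 2 were at least 2-fold lower, against 1.94% of all such genes. HLA-DPA1 stood at 12.05 with siCtrl and 10.11 with siMLL/AF4, a difference of -1.95, and HLA-DOA at 9.33 and 7.51. HLA-DRB6 differed by -1.16 (1.86 against the earlier siCtrl arrays), HLA-DRB3 by -0.84 and the invariant chain CD74 by -0.61. HLA-DPA1 had differed by -0.93 and -1.94 on the earlier days, and its MOCK values were 11.94 and 12.04. CIITA, the activator of these genes, had only dim probes and differed by -0.06. The HLA-DRB genes share long stretches of sequence, so their probes may read more than 1 gene. MHC class I genes were divided, with 6 of 13 higher and 1 past 2-fold, ERAP2, which trims peptides. Among all bright genes 46.1% were higher and 5.72% at least 2-fold higher.

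Growth and metabolism lists differed in sign but seldom passed 2-fold. Beside them, 3420 of all 6361 bright genes were lower and 4.01% at least 2-fold lower. DNA replication genes were lower in 33 of 40 bright members with none past 2-fold and a median of -0.27, led by CHAF1A at -0.98, POLD3 at -0.83 and TK1 at -0.82. ORC6, of the origin recognition complex, had probes of opposite sign, at 0.88 and -0.46. Mitosis genes were lower in 26 of 40 with a median of -0.09. PLK1, the polo-like kinase of mitotic entry, stood at 7.78 with siCtrl and under the floor at 3.47 with siMLL/AF4, a bound of -2.62 on the difference, while BIRC5 (survivin) differed by -0.88 and CENPF by 0.58. PLK1 was thus the 1 member past 2-fold, and its value stands apart from the 39 others. In the promoters of the mitosis genes the cell cycle homology region TTTGAA was found in 53.1%, against 8.76% of bright genes, and CCAAT in 75%, against 37.6%.

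Glycolysis enzymes were lower in 19 of 20 bright members, with a median of -0.27 and none past 2-fold. Among all 6361 bright genes 3420 were lower, 2934 were higher and 4.01% were at least 2-fold lower. tRNA synthetases and ATF4 target genes had a median of -0.32, led by ASNS, asparagine synthetase, at 10.69 and 9.50, PSPH at -1.01, PHGDH at -0.76 and PSAT1 at -0.73. Proteasome subunits were higher in 22 of 27, with a median of 0.38 and PSMC6 at 0.73, none past 2-fold. Oxidative phosphorylation subunits and cytosolic ribosomal proteins had medians of -0.14 and -0.05 and no member of 51 and 66 past 2-fold. HSPA5 (BiP), the chaperone of the endoplasmic reticulum, stood at 7.62 and 5.38, a difference of -2.24, while the other 21 chaperones stayed within 2-fold. MYBBP1A was the 1 ribosome biogenesis gene past 2-fold of 21, and SNRPD3 at -1.82 and PRPF6 at -1.77 were the 2 spliceosome genes of 36.

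Cytoskeletal, lysosomal and death genes gave few calls. Among all 6361 bright genes 3420 were lower and 2934 higher, with 5.72% at least 2-fold higher and 4.01% at least 2-fold lower. Actin cytoskeleton genes were lower in 18 of 23, with VASP at -1.21 (1.22 against the earlier siCtrl arrays), ACTN1 at -1.14 and ACTB, beta-actin, at -0.80, and LSP1, a leukocyte actin-binding protein, was higher by 1.93. Autophagy and lysosome genes were higher in 14 of 16, with a median of 0.38, and the protease CTSD at 0.81. Of the 2 past 2-fold, GABARAPL1 and CTSB, CTSB had probes of opposite sign, 1.10 and -0.13, and 1 of 15 members bright on both arrays passed. Among BCL2 family genes the pro-apoptotic BMF stood at 8.68 and 10.36 and PMAIP1 (NOXA) at 10.34 and 11.50, and these were the 2 of 11 past 2-fold. Of p53 targets, GADD45A was higher by 1.22. Annexins and S100 genes held ANXA1 and, in the other direction, ANXA11 at -1.39. Of the 4 bright NF-kB genes, RELA was past 2-fold, at -1.10. ANXA1, ANXA11 and RELA were each bright on 1 array only, and on both-bright members 0 of 8 annexin and S100 genes and 0 of 2 NF-kB genes passed.

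**Figure D3:**
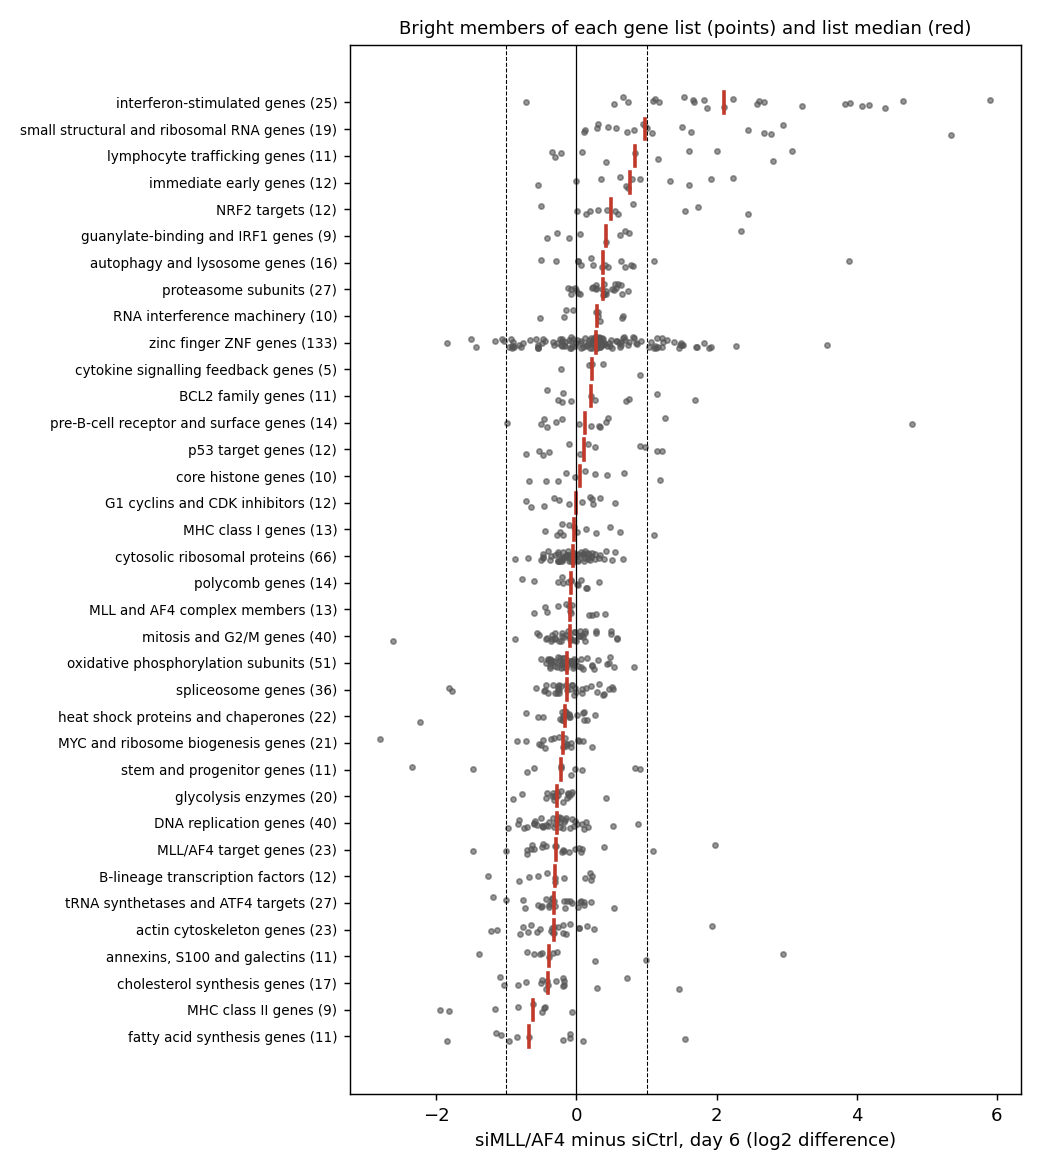
Points are the bright members of each gene list, with the number of bright members in brackets, and the horizontal axis is the log2 difference siMLL/AF4 minus siCtrl on day 6. Red bars are list medians and dashed lines mark 2-fold, and the interferon-stimulated list has its median at 2.11 and 21 members past 2-fold higher.

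Markers of the labelled cell type were present in part. Of the B-cell precursor markers 6 of 9 with a probe were bright (CD79A, CD79B, EBF1, VPREB1, IGLL1 and CD22), and PAX5, DNTT and RAG1 were under the floor. Their summed linear level was 9677 with siCtrl and 10649 with siMLL/AF4. Myeloid markers summed to 6780 and 6866, with 3 of 11 bright, CSF1R at -1.41, LYZ at 1.15 and CEBPA at -0.08. T and NK cell markers summed to 1652 and 1512, with NKG7 as the 1 bright member of 11, and no erythroid marker of 6 was bright (sums of 84.6 and 106). Stromal markers had the largest sums, 15298 and 13687, with 2 of 6 bright, VIM and PDGFRB. These sums rest mainly on VIM, at log2 13.73 with siCtrl and 13.55 with siMLL/AF4, and do not speak for the list. PDGFRB stood at 10.65 and 10.69 and COL1A1 at 5.86 and 5.50. COL1A2, COL3A1 and ACTA2 were under the floor or without a value on both arrays. CD14, CD3E and GZMB were under the floor or without a value on both arrays. No marker list moved past 2-fold as a sum.

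The band of bright genes above the diagonal was described after its values were seen. Of the 122 genes in the brightest class that were at least 2-fold higher on day 6, 110 (90.2%) were lower with siMLL/AF4 on day 2, whereas 54.2% of all genes in that class were. These 110 genes had median differences of -0.85 (day 2), -0.08 (day 4) and 1.46 (day 6), and 39 of them were at least 2-fold lower on day 2. For 107 of them siMLL/AF4 of day 6 was the highest of the 8 arrays, and their siCtrl value of day 6 lay a median of 1.39 above the mean of the earlier siCtrl arrays. Without these 110 genes, 254 genes remained past 2-fold higher. Of the interferon-stimulated genes past 2-fold, 3 of 21 were among the 110, of zinc finger genes 12 of 24.

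Several members of the band are known chiefly from other tissues. AIRE, the thymic regulator of self-antigens, stood at 11.79 with siCtrl and 13.13 with siMLL/AF4 on day 6, against 10.37 and 9.54 on day 2. DMC1, a meiotic recombinase, stood at 12.10 and 13.47, against 9.66 and 8.89 on day 2, and its second bright probe differed by 0.07 on day 6. AKR1D1, a hepatic enzyme of bile acid synthesis, stood at 12.62 and 13.94, against 11.70 and 11.11. LEP, the adipocyte hormone leptin, stood at 8.62 and 11.17, against 5.90 and 5.14. The order of the arrays was alike in these 4 genes, with both day 6 arrays at the top and siMLL/AF4 of day 2 at the bottom of the 6 siRNA arrays.

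BCYRN1, a short RNA that derives from an Alu repeat, had this order too, at 6.90 and 5.78 on day 2, 8.11 and 7.25 on day 4, and 9.15 and 10.86 on day 6. The part of repeat sequence, probe design or RNA composition in the band was not tested, and probe sequences were not used here. EGR1, HSD17B7, ERAP2 and ZNF786 belong to the 110 genes, as do RNA28SN5, RN7SK, N4BP2 and TNFSF14, described further on. ORC6, at 14.19 and 15.07, and RAX2, a retinal homeobox gene at 8.00 and 10.58, had a similar order of arrays outside it.

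Zinc finger genes, the largest family of transcription factors, had 133 of 421 members bright, of which 88 were higher, 24 at least 2-fold higher and 6 at least 2-fold lower, with a median of 0.28. On the 98 bright on both arrays, 19 were higher and 1 lower by 2-fold, against 3.88% and 1.94% of all such genes. ZNF786 stood at 9.05 and 11.33, ZNF682 at 11.18 and 13.10 and ZNF577 at 9.55 and 11.44, each lower with siMLL/AF4 on day 2. The second bright probe of ZNF682 differed by 0.10. ZNF423, a regulator that binds the B-lineage factor EBF1, differed by -1.85. Many members of this family resemble each other in sequence.

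Small structural and ribosomal RNAs, most of which lack a poly(A) tail, were all higher where bright. Of 72 listed, 19 were bright, and 9 of these were at least 2-fold higher, with a median of 0.97, where 5.72% of all bright genes were. On the 10 bright on both arrays, 3 were at least 2-fold higher, with a median of 0.65, against 3.88% of all such genes. RNA28SN5, a 28S ribosomal RNA, stood at 6.51 with siCtrl and 11.86 with siMLL/AF4, a difference of 5.35. RN7SK, which holds the elongation factor P-TEFb inactive, stood at 9.60 and 12.38, and RPPH1, the RNA of RNase P, at 5.70 and 8.38. The same genes were opposite on day 2, at -2.85, -4.14 and, as a bound, -2.42. On day 4 they were higher, by 2.80, 3.37 and at least 2.24. For the bright members of the list the medians were -1.47 on day 2 and 0.84 on day 4.

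The levels of these RNAs ranged widely within each treatment. RN7SK was highest with siCtrl on day 2, at 15.11, and MOCK of day 2 stood at 12.58. Set against the mean of the earlier siCtrl arrays, a comparison added after seeing the data, the day 6 siMLL/AF4 value differed by -0.13 for RNA28SN5 and by -0.07 for RN7SK. RIMBP3, a protein-coding gene, was also highest with siCtrl on day 2, at 12.30, and is listed among the highest genes, at 6.51 and 9.65. RN7SL1, the RNA of the signal recognition particle, differed by 0.30. The share of total RNA in each labelling was not measured, and the part of labelling or RNA quality in these values was not tested.

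**Figure D4:**
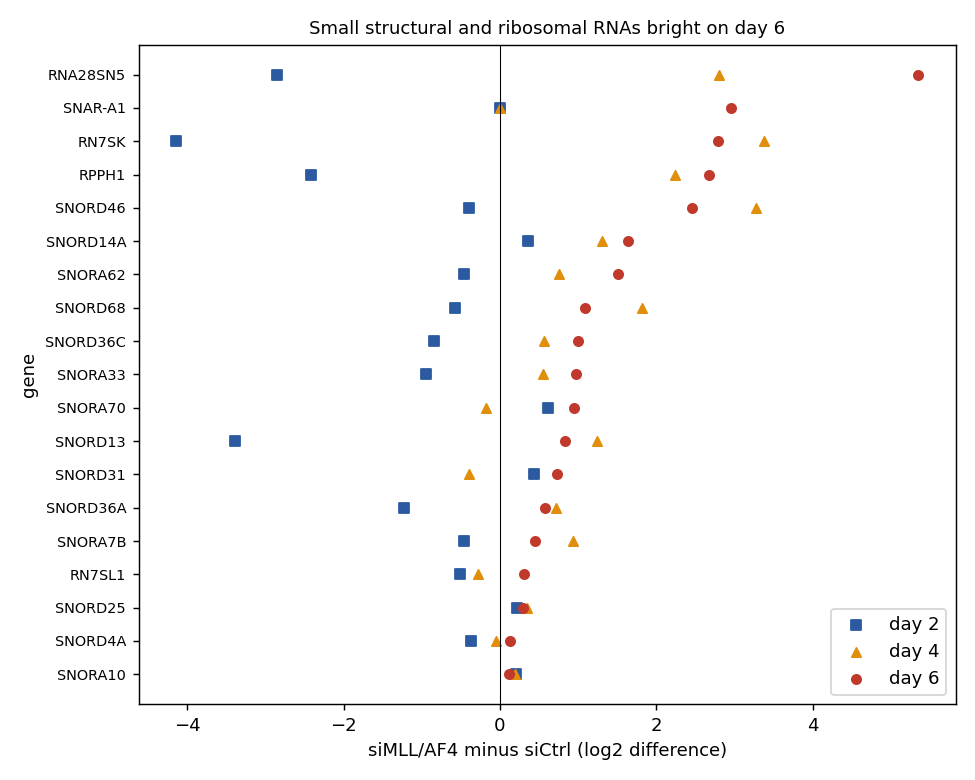
The horizontal axis is the log2 difference siMLL/AF4 minus siCtrl on day 2, 4 and 6 for each of the 19 small structural and ribosomal RNAs bright on day 6 (rows). All 19 lie above 0 on day 6, while RN7SK, RNA28SN5 and RPPH1 lie below 0 on day 2.

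The differences of day 6 were next set beside those of the earlier days, which do not share arrays with it. Over 5679 genes bright on both days, the Pearson correlation across genes of day 6 with day 2 was -0.0032, and over 5784 genes with day 4 it was 0.37. Genes are not independent replicates, and these values are given as a description. Of the 364 genes higher on day 6, 224 were bright on day 2, and 23 of these (10.3%) were at least 2-fold higher and 42 (18.8%) at least 2-fold lower then. On day 4, 263 were bright, and 44 (16.7%) were higher and 2 lower by 2-fold. The 255 lower genes had 24 of 190 (12.6%) at least 2-fold lower on day 2 and 35 of 197 (17.8%) on day 4. The shares over all bright genes of day 6 were 3.45% higher and 5.32% lower on day 2, and 1.85% and 1.40% on day 4.

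Over all genes bright on day 6 and on the earlier day, 3.45% were at least 2-fold higher on day 2 and 1.85% on day 4. The shares at least 2-fold lower were 5.32% and 1.40%. Of the 364 genes higher on day 6, 19 were bright and at least 2-fold higher on all 3 days. Of the 255 lower genes, 9 were bright and at least 2-fold lower on all 3 days. The higher ones were led by FCRLA, IFIT2, IFI44 and GABARAPL1, followed by IFIT3 (2.68 on day 6, 1.38 and 1.57 before), NLGN4X, NQO1 and GBP2. IFIT3 stood at 6.21 and 8.90 on day 6. The lower ones were CD93, HIVEP2, ANGPT1, RAP1B, RFLNB, NRGN, AIF1 and DPYSL3, with 1 more outside the 8 named. NRGN turned to 1.00 against the earlier siCtrl arrays. RAP1B, a small GTPase of integrin activation, stood at 8.18 and 6.21, with -1.13 and -1.91 before. AIF1, a calcium-binding protein of myeloid cells, differed by -1.22 on day 6 against -1.81 and -1.44 before.

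Of the genes above the floor on all 6 siRNA arrays, 304 were at least 2-fold higher on day 6 and 226 at least 2-fold lower. Among these, 70 of the higher and 69 of the lower genes differed by less than 0.5 on both earlier days. The share of all genes under 0.5 on both earlier days is not given here, so these counts do not mark out a late set. The late higher genes were led by OAS2 (4.40), ISG15 (2.58), SNX29P2 (2.40), SLC5A8 (2.22), SH3PXD2A (2.15), DDX60 (2.14), PPP2R2B (2.12) and N4BP2 (2.01). N4BP2 belongs to the bright band described above, and SLC5A8 had a similar order of arrays outside it. For SH3PXD2A the siCtrl value of day 6 was low, at 5.76 after 8.77 and 9.07, and against the earlier siCtrl arrays its siMLL/AF4 value of day 6 differed by -1.01. DDX60, a helicase that assists RNA sensors, stood at 6.81 with siCtrl, its lowest value on the 8 arrays, and at 8.95 with siMLL/AF4. The late lower genes were led by DAXX, a chaperone of histone H3.3, at 7.93 and 5.62, HSPA5, ARHGEF39 (-2.14), COA7 (-2.08), RNF25 (-2.02), TIMM8A (-1.94), CHMP3 (-1.82) and SNRPD3. RNF25 turned to 0.51 against the earlier siCtrl arrays. CHMP3, a subunit of the membrane-cutting ESCRT machinery, had a second probe under the floor with siMLL/AF4, with a bound of -3.49 on its difference. All the late lower genes named here were bright on day 6 only with siCtrl, and OAS2, SH3PXD2A, DDX60 and PPP2R2B only with siMLL/AF4. Their inclusion thus depended on the day 6 array where they are high. ARHGEF39, RNF25, TIMM8A, SNX29P2 and PPP2R2B were not bright on either earlier day.

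The within-day differences of day 6 were compared with the mean of day 2 and day 4 in limma. Day 6 enters as a single difference that is assumed to vary like the earlier ones, so the calls describe these arrays and do not establish a late change. Of 5904 genes 68 passed at an adjusted p under 0.05, 1.15%, of which 56 (0.949%) were higher on day 6 and 12 (0.203%) lower. OAS2 departed by 4.38 ± 0.62 (SE, limma, adjusted p = 2.39e-09), SAMD9L by 3.20 (adjusted p = 1.64e-04), IFIT2 by 2.84 (adjusted p = 0.00184), ISG15 by 2.48 (adjusted p = 0.0108) and IRF9 by 2.30 (adjusted p = 0.0220). These were 5 of the 20 interferon-stimulated genes tested, with limma and adjustment over all genes. The spread in this fit comes from day 2 against day 4 with 1 residual degree of freedom, and limma shrank it to 1 shared value for all genes, so genes that vary widely between arrays pass too. Without the pairing by day, 0 genes passed with limma, 180 had an unadjusted p under 0.05, and OAS2 had an adjusted p of 0.101. With the pairing, its adjusted p (limma) lay between 1.48e-09 and 1.66e-05 over the other alternatives with a value. The newer array version of day 6 enters every value of this test. Genes were tested if bright on at least 1 array of day 6 and also on day 2 or day 4. OAS2, SAMD9L and IFIT2 were bright on day 6 only with siMLL/AF4, where they are high, so their inclusion depended on that value. ISG15 and IRF9 were bright on both arrays. IFIT2 did not pass with a trended robust prior variance.

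**Figure D5:**
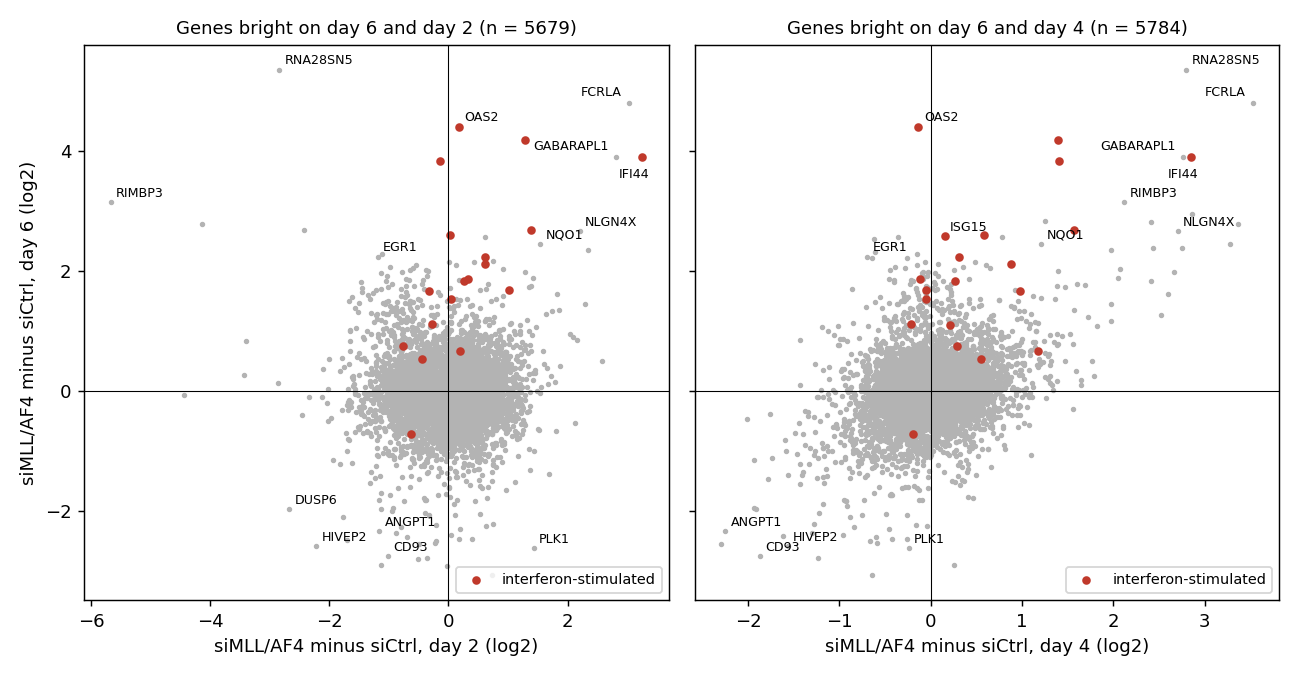
Each point is a gene bright on day 6 and on the earlier day, with the log2 difference siMLL/AF4 minus siCtrl on day 2 (left) or day 4 (right) on the horizontal axis and on day 6 on the vertical axis. Interferon-stimulated genes (red) lie high on day 6 and spread around 0 on day 2, while FCRLA, IFI44 and GABARAPL1 are high on both axes.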

How the data were processed

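Biotin-labelled RNA of SEM cells was read on Illumina bead arrays, per the labels' protocols. GenomeStudio is named in the submitters' processing notes without a version, and its settings (background correction, normalization) are not given in the sources used here. Per probe and array, the authors deposited 1 value, taken here as natural log expression values because, on that base, the brightest probe corresponds to 38664 linear units (1512 on base 2). Between them the day 6 arrays had values for 28099 (siCtrl) and 28079 (siMLL/AF4) probes, the rest being Null. The values were converted to log2 without further normalization. Their number limits the precision, as each group is 1 array.

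Gene symbols came from the platform annotation (27210 probes with 1 symbol, 8 with several, 12203 not listed), and 27177 matched a RefSeq gene. Differences past 2-fold were counted, with brightness at the 70th percentile and a floor at the 50th. The late minus early effect was tested with limma 3.58.1 in R 4.3.3 (lmFit and eBayes, two-sided, Benjamini-Hochberg over 5904 genes) on differences within a day, and the fit was tested on simulated data. The labels give 1 sample for each treatment and day, so p-values reflect only how far days differ, which may be technical. Pairing is by day. Named genes were all KMT2A and AFF1 probes, the 15 highest and 15 lowest genes above the floor on both arrays, 6 bounds on each side, up to 5 members of each list, the 8 leading genes on each side of the late, all-day and multi-probe patterns, and the 5 most extreme late minus early effects on each side. Genes of the bright band were named after their values were seen. The members and gene lists were chosen with earlier results of these data known. Alternatives covered brightness, floor, log base, offset, normalization, probe choice and control array.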

Additional observations from a re-analysis of the deposited data

Results flagged for a closer look

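The 5 most extreme effects on each side in the test of day 6 against the earlier days are given here, as limma called them in a comparison where day 6 is a single difference with an assumed spread. Without the pairing by day, limma called 0 genes. RNA28SN5 departed by 5.37 (adjusted p = 1.87e-14, limma), from differences of -2.85 on day 2 and 2.80 on day 4, and RIMBP3 by 4.92 (adjusted p = 4.65e-12). Both had opposite signs on the 2 earlier days, and neither passed with a trended robust prior variance in limma. OAS2 departed by 4.38 and passed with that variance as well (limma, adjusted p = 1.66e-05). RAX2 departed by 3.48 and TNFSF14, a ligand of the tumour necrosis factor family, by 3.31. TNFSF14 belongs to the bright band, and RAX2 shares its order of arrays. Both were lower with siMLL/AF4 on day 2 and highest of all arrays with siMLL/AF4 on day 6. On the other side PLK1 departed by -3.22, ANAPC7 by -3.11, MYBBP1A by -2.82, KLHL23 by -2.67 and OAF by -2.54. PLK1, ANAPC7, MYBBP1A and KLHL23 were under the floor with siMLL/AF4 on day 6, and OAF stood at 5.47. These 5 genes were bright on day 6 only with siCtrl, and RNA28SN5, RIMBP3 and OAS2 only with siMLL/AF4. Their inclusion in the test thus depended on the day 6 array where they are high. RAX2 and TNFSF14 were bright on both arrays of day 6.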

How the results depend on the processing

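The count of genes higher on day 6 (364) lay between 253 and 366 under 6 alternatives, and centring on the median moved it little. It was 707 with a brightness minimum at the 60th percentile, 218 with brightness needed on both arrays, 196 with base 2 logs and 1019 with the mean of the day 2 and day 4 siCtrl arrays as control, an alternative added after seeing the data that also sets values across array versions. The count of lower genes (255) was 631 at the 60th and 110 at the 80th percentile, 109 with both arrays bright, 87 with base 2 logs, 137 with an offset of 64 and 656 against the earlier siCtrl arrays. Of the interferon-stimulated genes, 9 were past 2-fold when brightness was needed on both arrays, and 18 to 26 under every other alternative, against 21. The 68 late minus early calls became 104 at the 60th and 16 at the 80th percentile, 75 with a trended robust variance, 70 with a floor at the 25th percentile and 0 with no replicate block, that is, without the pairing by day. IFIT2 had an adjusted p (limma) of 0.0552 with the trended robust variance. A departure of at least 2-fold from the earlier days was seen for 575 genes, 509 without day 2 and 1154 without day 4. No paired analysis was possible for the counts on day 6 alone because each treatment has 1 array. Against the earlier siCtrl arrays 12 values of named genes changed sign, to 0.42 for EEF2KMT, 1.86 for HLA-DRB6, 1.00 for NRGN, -0.15 for REEP3, -0.014 for RIMBP3, -0.075 for RN7SK, -0.13 for RNA28SN5, 0.51 for RNF25, -0.30 for SENP6, -1.01 for SH3PXD2A, 2.25 for SPI1 and 1.22 for VASP. The cause was not tested. Over all alternatives, 1936 values of named genes moved by less than the spread between probes and 516 by more.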
